A study of Mus musculus with 2 samples.

Results

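The Reg genes encode the regenerating family, small secreted proteins with a C-type lectin fold. Their 6 mouse members Reg1, Reg2, Reg3a, Reg3b, Reg3d and Reg3g were described in splenic RNA from acetaminophen (APAP)-intoxicated mice and from vehicle-treated mice (ctrl). The members were found by their gene symbols and make up 6 of the 22791 genes in the count table. The family was chosen by its counts in these same libraries, where it was lower in APAP than in ctrl. All values below are therefore a description, and none of them is a test of that difference. Reg4, the remaining mouse family member, which lies on chromosome 3, has no entry in the table and was not analysed here.

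Reg proteins are known as products of the exocrine pancreas and of the gut epithelium. Acinar cells release Reg1, also called pancreatic stone protein or lithostathine, together with the digestive enzymes. Reg3b was first described as pancreatitis-associated protein, since acinar cells raise it in acute pancreatitis. In the intestine Reg3b and Reg3g act on bacteria, and their genes respond to interleukin (IL)-22 and IL-6 through the transcription factor STAT3. The tail of the pancreas lies close to the hilum of the spleen, and digestive enzymes are not known as products of spleen cells.

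Both groups were male C57BL/6J mice of 9 to 11 weeks without genetic modification (labelled C57BL/6), which had been fasted for 10 h. APAP mice were injected intraperitoneally with 300 mg/kg APAP and ctrl mice with 0.9% NaCl, and spleens were taken after 30 h. RNA was pooled in equal shares from 5 ctrl mice and from 11 APAP mice, and 1 library per pool was sequenced by massive analysis of cDNA ends (MACE), which reads the 3′ end of each transcript. Each group thus has 1 library and no replicate, no p-value can be given, and every interval is a 95% interval of counting error that holds no variation between mice, pools or preparations. The libraries held 2735788 counts (ctrl) and 2890947 counts (APAP). The spleen markers were present in both. Among them Tlx1, a transcription factor gene needed to form the spleen, had 101 and 134.

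The 6 genes are neighbours on chromosome 6. In mm10 (GENCODE M21) they fill a stretch of 98.2 kb from 78370657 to 78468872, and no other gene is annotated in it. Their order is Reg3b (78370657 to 78373466, plus strand), Reg3d (78375874 to 78378865, minus), Reg3a (78380709 to 78383827, plus), Reg2 (78395623 to 78408106, plus), Reg1 (78422711 to 78428667, plus) and Reg3g (78466269 to 78468872, minus). Each has 6 exons in its first listed transcript, and none shares an exon with another gene. Since the genes are related, reads could be assigned to the wrong member. Over whole transcripts the pairs were identical at 48.5% to 67.7% of aligned bases, highest for Reg1 with Reg2 and for Reg3b with Reg3g. Over the last 200 bases, a length chosen here to stand for the 3′ end, identity was 43.6% to 56.3%. The longest run shared by any pair there was 12 bases, and no run of 31 bases from there was shared with a transcript of any other gene. Where the reads lie was not examined, and shared runs further upstream were not searched.

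The promoters of Reg1, Reg2 and Reg3b are printed because these are the members with the most counts and because their motifs differ. They are the 250 bases before the RefSeq start (GRCm38.p6), read 5′ to 3′ on the strand of the gene. Capitals mark matches to a TATA box (TATAAA), the TC box of the acinar factor PTF1 (TTTCCC), STAT-type palindromes (TTCNNNGAA, and the same with a spacing of 4) and a C/EBP-type motif (TTNNGNAA), each searched on both strands. The windows are chr6:78425733-78425982 for Reg1, chr6:78404905-78405154 for Reg2 and chr6:78370635-78370884 for Reg3b, all on the plus strand. The RefSeq starts of these 3 genes lie inside the longer GENCODE spans given above.
Reg1: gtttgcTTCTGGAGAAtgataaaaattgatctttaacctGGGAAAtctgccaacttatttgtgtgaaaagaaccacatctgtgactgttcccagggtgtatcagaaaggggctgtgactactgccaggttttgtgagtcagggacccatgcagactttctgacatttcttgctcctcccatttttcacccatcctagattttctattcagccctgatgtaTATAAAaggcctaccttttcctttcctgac
Reg2: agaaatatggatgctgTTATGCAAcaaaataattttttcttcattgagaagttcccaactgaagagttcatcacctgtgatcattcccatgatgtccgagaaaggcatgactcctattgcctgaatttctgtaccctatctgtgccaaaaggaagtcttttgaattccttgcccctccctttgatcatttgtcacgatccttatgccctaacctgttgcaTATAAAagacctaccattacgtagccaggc
Reg3b: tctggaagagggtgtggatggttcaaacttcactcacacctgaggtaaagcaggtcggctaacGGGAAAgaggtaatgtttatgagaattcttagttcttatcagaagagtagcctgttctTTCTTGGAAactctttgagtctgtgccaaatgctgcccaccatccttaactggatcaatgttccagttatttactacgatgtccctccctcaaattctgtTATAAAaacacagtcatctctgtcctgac

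All 6 members had a promoter among the 32851 RefSeq windows searched, each 300 bases long with 50 bases after the start. TATAAA stood in Reg1, Reg2, Reg3b and Reg3g, with its first base at -30, -30, -29 and -27 from the start. It was held by 13.6% of all promoters. The TC box stood in Reg1, Reg3b, Reg3d and Reg3g (25.2% of all promoters). The STAT-type palindrome with a spacing of 3 stood in Reg3b (first base at -129) and Reg3d (-238), against 8.30% of all promoters, and that with a spacing of 4 in Reg1 (-244), against 6.95%. The match in Reg3d overlaps its TC box at -239. The C/EBP-type motif stood in Reg2, Reg3a and Reg3d (40.7% of all promoters). An E-box (CANNTG), which is left in lower case above, stood in all 6 members and in 72.3% of all promoters, and the GATA motif AGATAA stood in no member and in 11.2%. Reg3b and Reg3g had the most similar promoters, with 68.4% identity and a shared run of 29 bases, acagtcatctctgtcctgacacaccatcc, which spans the start. Other pairs reached 45.1% or more. A match is a stretch of letters and no evidence of binding.

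Reg1 and Reg2 mRNA was abundant in the ctrl spleen pool, and every member was lower in the APAP pool. Reg1 had 3816 counts in ctrl and 907 in APAP, which are 1395 (1351 to 1440) and 314 (294 to 335) counts per 1000000 counts of the library (CPM). It held place 70 among all genes by counts in ctrl and place 431 in APAP. Reg2, a close relative of Reg1 made in the pancreas, had 1270 and 119 counts, or 464 (439 to 490) and 41.2 (34.1 to 49.3) CPM. It held place 250 in ctrl and place 4615 in APAP. Both genes were lower in APAP than in ctrl. Reg1 still ranked among the abundant genes in APAP.

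The Reg3 genes were rarer. Reg3b had 145 counts in ctrl and 19 in APAP, or 53.0 (44.7 to 62.4) and 6.57 (3.96 to 10.3) CPM. Reg3d, a pancreatic member related to hamster islet neogenesis-associated protein, had 106 and 20 counts, or 38.7 (31.7 to 46.9) and 6.92 (4.23 to 10.7) CPM. For Reg3a, a Reg3 member likewise made in mouse pancreas, 40 counts in ctrl and 1 in APAP were found, or 14.6 (10.4 to 19.9) and 0.346 (0.0088 to 1.93) CPM. These 3 genes too were lower in APAP. Reg3g, the bactericidal lectin of the small intestine, had 10 counts in ctrl, or 3.66 (1.75 to 6.72) CPM, but 0 in APAP. A count of 0 leaves room for 1.04 CPM (3 counts).

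By level in ctrl the order was Reg1, Reg2, Reg3b, Reg3d, Reg3a and Reg3g, and only the neighbours Reg3b and Reg3d had overlapping intervals. In APAP the order of Reg3b and Reg3d was turned, within overlapping intervals. Reads of a 3′ end method do not depend on transcript length, so that length does not bear on this order. Apart from shared sequence at the ends, other differences in how the genes are read and counted were not tested.

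**Figure D1:**
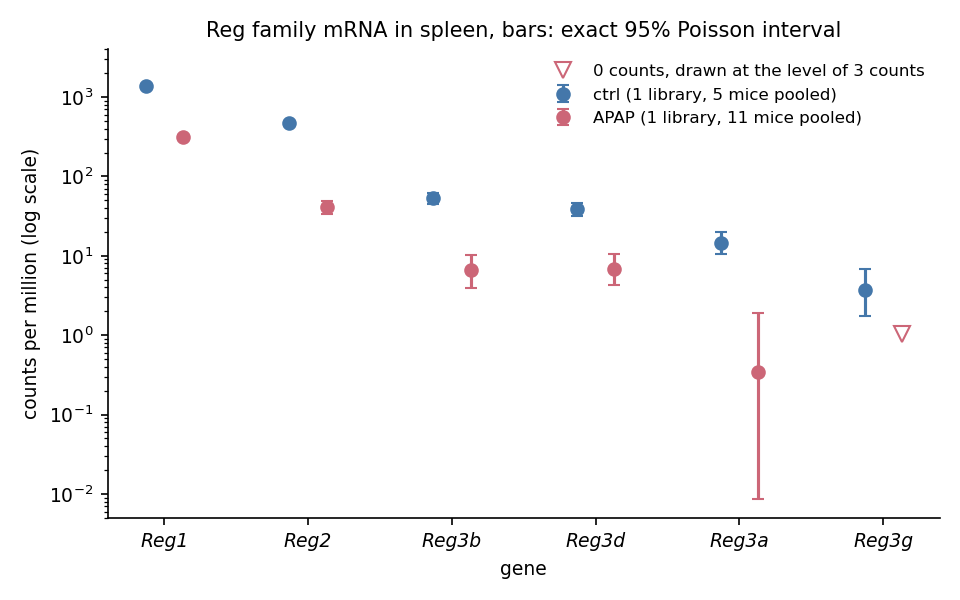
CPM (log scale) of the 6 Reg genes in the ctrl library and in the APAP library, 1 point per library with its exact 95% Poisson interval, and an open triangle where Reg3g had 0 counts, drawn at the level of 3 counts. Reg1 stood at 1395 and 314 CPM, and each of the 5 members with counts in both libraries was lower in APAP.

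For the ratio of APAP over ctrl the counts were normalised by the size factors of both libraries. The ratio was lowest for Reg3a with 0.0225 (0.000556 to 0.133) and then 0.0843 (0.0693 to 0.102) for Reg2. Reg3b followed with 0.118 (0.0690 to 0.191), Reg3d with 0.170 (0.0997 to 0.276) and Reg1 with 0.214 (0.199 to 0.230). Reg1 was thus 4.67-fold (4.35 to 5.03) higher in ctrl and Reg2 11.9-fold (9.82 to 14.4). The 44.4-fold of Reg3a rests on 1 count in APAP and has an interval from 7.53 to 1799. Reg3g was at least 3.70-fold higher in ctrl with 0 counts set to 3, a bound that takes its 10 ctrl counts as exact. The exact interval of its fold, which counts the error of both, began at 2.49.

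A gene was counted as lower or higher where both libraries together held 20 or more of its counts, where it differed 2-fold or more, and where 1 lay outside the interval of its ratio. Of the 6 Reg genes, 5 had 20 counts, and all of these 5 were counted as lower, while 1.68% of the 12929 genes tested were lower and 1.39% higher. With library totals in place of the size factors, 180 genes were lower and 237 higher, against 217 and 180 with the size factors, and the same 5 members were lower. The median log2 ratio of the 5 members was -3.08, and -2.82 over all 6 with Reg3g at its bound, beside 0.02 over all genes tested. Nothing is read from these shares, since the members were chosen for this difference. Ordered by the upper end of the interval, places 1 to 4 of the 12929 genes were taken by Reg2, Reg3a, Reg3b and Reg1, and Reg3d held place 12. At the limit of 20 counts, Reg3a with 41 counts lay inside and Reg3g with 10 outside.

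**Figure D2:**
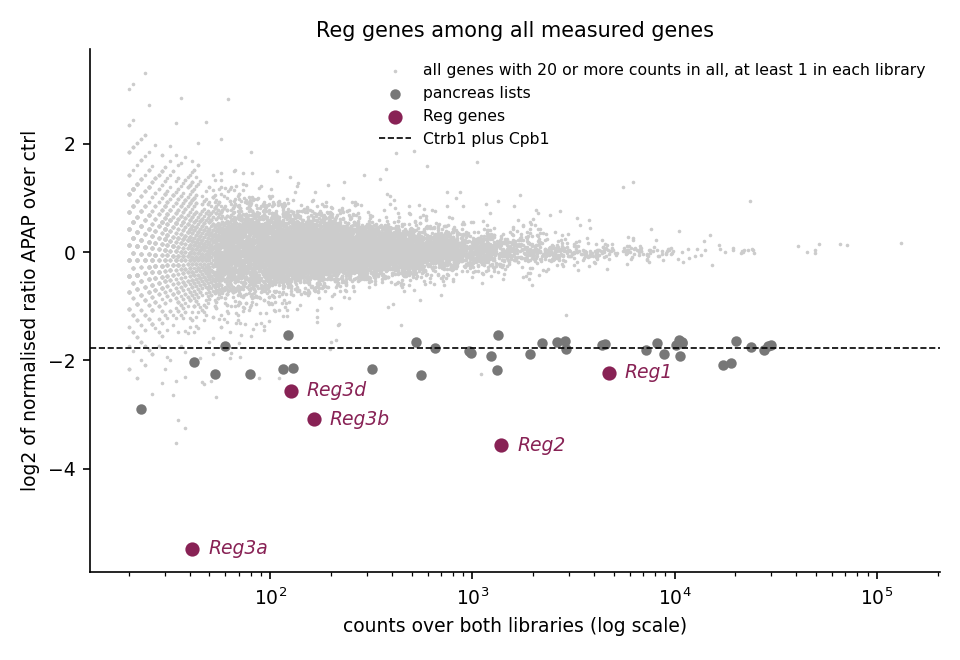
log2 of the normalised ratio APAP over ctrl against counts over both libraries (log scale) for each gene with at least 20 counts in all and 1 or more in each library. The 5 Reg genes lie at the lower edge, below the dashed line that marks the ratio 0.293 of Ctrb1 plus Cpb1, and grey points are other pancreas genes.

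The pancreatic share of the RNA was read from Ctrb1, the chymotrypsinogen B1 gene, and Cpb1, the gene of pancreatic carboxypeptidase B1. Both are acinar zymogens. Ctrb1 had 22539 counts in ctrl and 7597 in APAP, a ratio of 0.303 (0.296 to 0.311). Cpb1 had 8270 and 2420 counts, a ratio of 0.263 (0.252 to 0.276). Their summed counts, used as the reference, were lower in APAP with a ratio of 0.293 (0.286 to 0.299). The Reg counts and these markers of pancreatic tissue were thus both lower in APAP. In pooled bulk RNA, fewer cells of a type and less RNA per cell cannot be told apart, and how much pancreas each spleen sample carried was not tested.

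Beside this reference the Reg genes were still lower in APAP, to unequal degrees. Per 1000 counts of Ctrb1 plus Cpb1, the 6 Reg genes summed to 175 (169.8 to 180.0) counts in ctrl and 106 (99.8 to 113) in APAP. The sum was 5387 counts in ctrl and 1066 in APAP, where 1751 counts would have matched the ratio of the reference. This gave a ratio relative to the reference of 0.609 (0.567 to 0.653). Of the 6 genes, 5 had an interval below 1 on this measure. Of all 12929 genes tested, 0.108% (14 genes) had a ratio whose interval lay below that of the reference, namely the same 5 Reg genes, the enzyme genes Try4, Try5, Try10 and Rnase1, Cpb1 as a part of the reference itself, Pdia2, 1810028F09Rik, Gm5409 and Gal.

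Reg1 moved least relative to the enzymes, though it was not apart from Reg3d or Reg3g beyond counting error. Reg1 passed from 124 counts per 1000 reference counts in ctrl to 90.5 in APAP, a relative ratio of 0.731 (0.677 to 0.789). Reg2 passed from 41.2 to 11.9, or 0.288 (0.237 to 0.349), so that its ratio was 3.47-fold (2.87 to 4.23) below that of the reference. Reg3b passed from 4.71 to 1.90, or 0.403 (0.236 to 0.653), and Reg3d from 3.44 to 2.00, or 0.580 (0.341 to 0.943). Reg3a passed from 1.30 to 0.0998, or 0.0769 (0.0019 to 0.454), with 1 count in APAP. For Reg3g, 3.25 counts would have matched the reference and 0 were found. A difference of Reg3g from the enzymes was not detectable at this depth, with an interval of the relative ratio reaching up to 1.37.

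**Figure D3:**
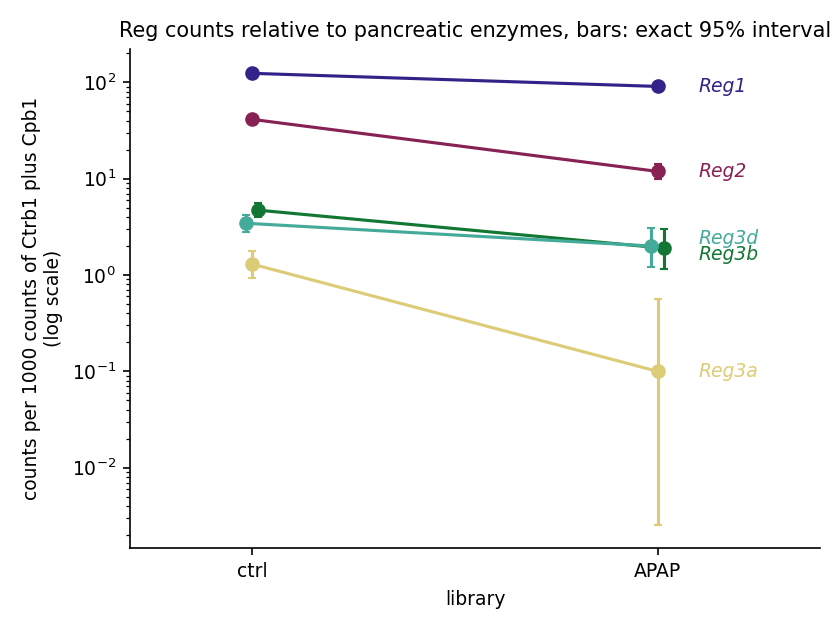
Counts of 5 Reg genes per 1000 counts of Ctrb1 plus Cpb1 (log scale) in the ctrl and the APAP library, with exact 95% intervals and lines that join the same gene. Reg2 passed from 41.2 to 11.9 and Reg1 from 124 to 90.5, while Reg3g is not drawn because it had 0 counts in APAP.

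The 4 Reg3 genes together had 301 counts in ctrl and 40 in APAP, a ratio of 0.120 (0.0838 to 0.167) and of 0.409 (0.286 to 0.570) relative to the reference. The single enzymes differed among themselves, so each of 24 acinar enzyme genes was also used as the reference in turn, a choice made after the data were seen. Their own ratios ran from 0.223 for the trypsinogen gene Try10 to 0.327 for Ctrl, with a median of 0.294. Reg2 and Reg3a were lower than each of the 24 enzymes with an interval below 1. Reg1 was so for 20 of them and not for Prss1, Prss3, Try10 and Ctrc. Reg3b was so for 21, Reg3d for 16 and Reg3g for none.

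Relative to Cpb1 alone, Reg1 had 0.812 (0.745 to 0.885) and Reg3d 0.645 (0.378 to 1.05), of which only the latter includes 1. Genes of acinar secretion and identity had 676 counts in ctrl and 175 in APAP. This list, also taken as a reference after the data were seen, holds among others the disulfide isomerase gene Pdia2 and the transcription factor gene Ptf1a. Relative to it, Reg1 had 0.918 (0.764 to 1.11), Reg3d 0.729 (0.416 to 1.22) and the sum of 6 genes 0.764 (0.638 to 0.920). Reg2 had 0.362 (0.279 to 0.469), Reg3b 0.506 (0.288 to 0.848) and Reg3a 0.0966 (0.0024 to 0.579). Pdia2 gave 453 and 104 of these counts. Without it the list had 223 and 71 counts, and the relative ratio was 0.747 (0.563 to 0.999) for Reg1, 0.593 (0.324 to 1.05) for Reg3d and 0.622 (0.470 to 0.831) for the sum. Relative to the 7 granule and inhibitor genes the sum had 0.595 (0.551 to 0.642), and relative to duct and epithelial genes (112 and 59 counts) 0.376 (0.270 to 0.528). Relative to the islet list, hormone genes and a few other islet genes with 73 and 15 counts in sum, Reg1 had 1.16 (0.654 to 2.18) and only Reg2 and Reg3a had an interval below 1, at 0.456 (0.250 to 0.884) and 0.122 (0.0028 to 0.857).

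**Figure D4:**
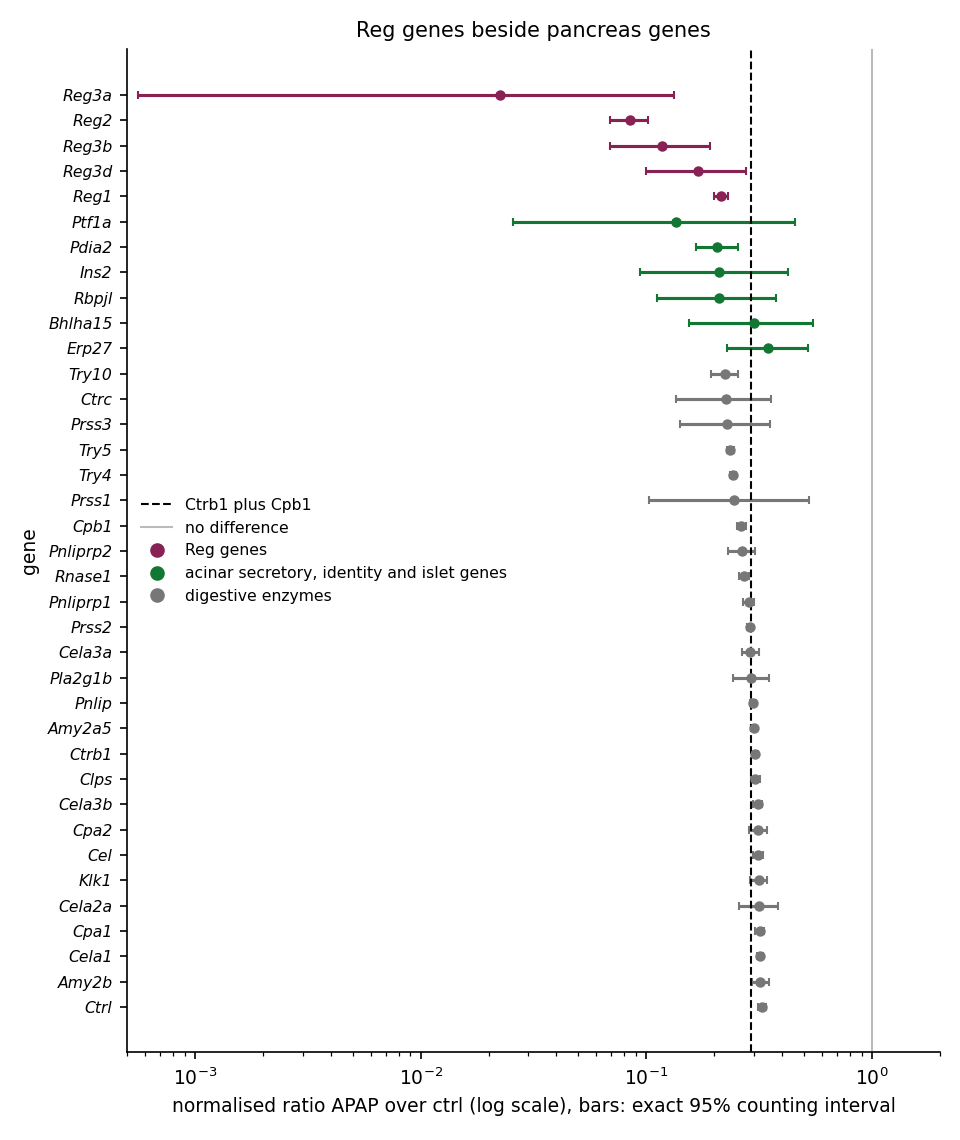
Normalised ratio APAP over ctrl (log scale) with exact 95% counting intervals for Reg genes, for genes of acinar secretion, acinar identity and islets, and for digestive enzymes. Reg2 (0.0843) lies left of every enzyme, whose ratios ran from 0.223 to 0.327, and the dashed line marks Ctrb1 plus Cpb1 at 0.293.

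The makeup of the Reg mRNA differed between the libraries. All 6 genes took 0.197% (Wilson interval 0.192 to 0.202) of the ctrl counts and 0.0369% (0.0347 to 0.0392) of the APAP counts. Of the Reg counts, Reg1 made up 70.8% (69.6 to 72.0) in ctrl and 85.1% (82.8 to 87.1) in APAP. Reg2 made up 23.6% (22.5 to 24.7) and 11.2% (9.41 to 13.2). The share of Reg3b was 2.69% (2.29 to 3.16) and 1.78% (1.14 to 2.77), and that of Reg3d 1.97% (1.63 to 2.37) and 1.88% (1.22 to 2.88). Reg1 thus had the larger share in APAP, Reg2 the larger share in ctrl, and the intervals of Reg3b and Reg3d overlapped. Among the Reg counts other than Reg1, Reg2 made up 80.8% (78.8 to 82.7) in ctrl and 74.8% (67.6 to 80.9) in APAP, with overlapping intervals. Reg3a had 0.743% (0.546 to 1.01) and 0.0938% (0.0166 to 0.530). Reg3g had 0.186% (0.101 to 0.341) and 0%, with an upper bound of 0.359%.

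**Figure D5:**
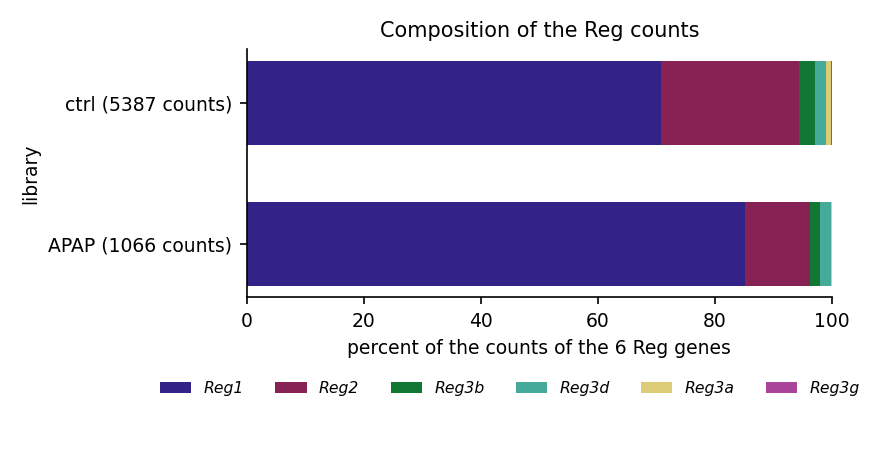
Share of each Reg gene in the summed Reg counts (percent) of the ctrl library (5387 counts) and the APAP library (1066 counts). Reg1 took 70.8% in ctrl and 85.1% in APAP, and Reg2 took 23.6% and 11.2%.

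The members were also compared with each other, which uses no pancreatic reference and no size factor. There were 3.00 counts of Reg1 per count of Reg2 in ctrl and 7.62 in APAP, a ratio of ratios of 2.54 (2.07 to 3.13). Among the 15 pairs of members, 5 had an interval that excluded 1, without adjustment for the number of pairs. Besides Reg1 and Reg2 these were Reg1 over Reg3a with 9.51 (1.61 to 385), Reg1 over Reg3b with 1.81 (1.11 to 3.12), Reg2 over Reg3d with 0.497 (0.293 to 0.878) and Reg3a over Reg3d with 0.132 (0.0031 to 0.891). With the members ordered by their ratio (Reg3a, Reg2, Reg3b, Reg3d, Reg1), none differed from its neighbour beyond counting error.

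The genes closest to the summed Reg ratio of 0.178 (0.167 to 0.190) were sought among 8112 genes with at least 100 counts, by the distance of log2 ratios over both libraries. They were 1810028F09Rik (180 and 33 counts, ratio 0.165), Gm10334 (90 and 20, 0.200), Pdia2 (453 and 104, 0.207), Gm5409 (899 and 209, 0.209) and Try10 (1063 and 263, 0.223). Pdia2 encodes a disulfide isomerase of the pancreas and Try10 a trypsinogen, and near-identical trypsinogen copies can share reads, so that values of single copies are uncertain. Gal, the gene of the neuropeptide galanin, had 31 and 3 counts and was singled out after its values were seen.

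Other pancreas lists were lower as well. All 15 acinar proteases and all 9 lipases and other enzymes were counted as lower, with medians of -1.79 and -1.75 on the log2 scale. The summed 24 enzymes took 6.03% of the ctrl counts and 1.84% of the APAP counts, and the Reg genes in sum were lower than these enzymes by a relative ratio of 0.613. All 7 genes of zymogen granules and inhibitors were lower (Gp2, Sycn, Zg16, Spink1, Cuzd1, Dmbt1 and Tff2, ratios from 0.225 to 0.347). Of 7 genes of acinar secretion and identity, 5 had 20 counts and all 5 were lower, with a median log2 ratio of -2.25. Among them were Pdia2, Rbpjl (64 and 15 counts, ratio 0.211) and Ptf1a (20 and 3, 0.135), the latter both subunits of the PTF1 complex, and Bhlha15 (45 and 15, 0.300) and Erp27 (88 and 34, 0.348). The insulin gene Ins2 was lower with 43 and 10 counts (0.209, 0.0938 to 0.423), and it alone of 12 islet genes reached 20 counts. Ins1 had 16 and 3 counts, Iapp, the amylin gene, 4 and 1, and Gcg, the glucagon gene, 4 and 0. Of 9 duct and epithelial genes, 5 had 20 counts and 3 were lower, the keratin genes Krt8 (21 and 8), Krt18 (28 and 6) and Krt19 (16 and 4), whereas Epcam had 13 and 15 counts and Muc1 18 and 10.

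Genes of an acinar stress response, in which Reg3b is known to take part, were tested for 3 of 6 members. Nupr1, a stress gene of pancreatitis, was lower with 245 and 135 counts (0.496, 0.399 to 0.614). Its interval lay above the ratio of Ctrb1 plus Cpb1 (0.293, 0.286 to 0.299), whereas those of 5 Reg genes lay below it. Clu, the clusterin gene, had 1683 and 1899 counts (1.02, 0.951 to 1.09), and Il1rn had 17 and 12. Of 13 genes of the gut, the other main source of Reg3b and Reg3g, 8 had no entry, among them the epithelial genes Vil1, Muc2 and Alpi, and Fabp2 had 3 and 0 counts. The 3 that reached 20 counts were Lyz1 (125 and 139), Lgals4 (46 and 39) and Cdh17 (15 and 16), and none of them was counted as lower or higher.

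The cytokine axis known to induce Reg3 genes was read from its ligands to its targets. Of 8 ligand genes, Il22, Il17a and Il17f had no entry, Il6 had 1 count in each library, Il11 had 1 and 3, Lif and Il10 each had 3 and 2, and Osm, the oncostatin M gene, had 10 and 16 (1.44, 0.614 to 3.55). Of 9 receptor genes, Il22ra1 and Il17rc had no entry, and the 5 with 20 counts included none that was lower or higher. The signal-transducing subunit Il6st had 295 and 405 counts (1.24, 1.06 to 1.44), Lifr 148 and 175, and Il17ra 316 and 302. All 8 transducers and inhibitors were tested and none was counted. Stat3 had 185 and 278 counts (1.35, 1.12 to 1.64) and Jak1 618 and 683 (0.995, 0.891 to 1.11).

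Of 12 targets of STAT3 and the acute phase response, 11 were tested. Higher in APAP were 4 of them, Saa3 (6 and 26 counts, ratio 3.90, 1.57 to 11.6), Lrg1 (102 and 413, 3.64, 2.93 to 4.57), Lbp (8 and 21, 2.36, 1.01 to 6.17) and Cebpd (53 and 139, 2.36, 1.71 to 3.30). Saa1 was lower (24 and 7, 0.263, 0.0955 to 0.628). Haptoglobin (Hp) had 84 and 178 counts with a ratio of 1.91 and Bcl3 had 154 and 157. The 11 targets tested had a median log2 ratio of 0.49, with 6 above and 5 below a ratio of 1. Whether this axis acts on the Reg genes in these samples was not tested. Extl3, a proposed receptor of Reg proteins, had 94 and 120 counts (1.15, 0.87 to 1.52).

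Genes of other tissues that may adhere to a spleen moved less. Of 10 hepatocyte genes, 4 were lower (Apoc3, Fga, Hpx and Serpina3k, ratios 0.360, 0.360, 0.397 and 0.444) and none higher, with a median log2 ratio of -0.88. Alb had 423 and 272 counts, Ttr 86 and 56, and Trf, which spleen also expresses, 921 and 1213. Of 7 adipocyte genes tested, Cfd (307 and 134) and Plin1 (16 and 6) were lower and none was higher, with a median of -0.78, and Fabp4 had 225 and 170 counts and Car3 125 and 81. The part of such tissue in the Reg difference was not tested. Of 10 spleen genes, none was counted as lower or higher and the median was 0.15. The haemoglobin genes Hbb-bs and Hba-a1 had ratios of 1.13 and 1.09 and Vcam1, a gene of red pulp macrophages, of 1.41.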

How the data were processed

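Per the labels and methods, splenic RNA was prepared with trizol and DNase I, pooled per group and made into 3′mRNA libraries (MACE-kit v.2). The authors removed duplicates by unique molecular identifiers, trimmed with cutadapt, mapped to mm10 and counted with HTSeq; DESeq2 was named. For the aligner, annotation, versions and strand setting, nothing is given in the sources used here. Globin RNA was not removed.

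The deposited raw counts per gene were used for all results. Deposited columns headed TPM equal CPM (counts per 1000000 of the library total), with no division by length. The size factors, 0.949 for ctrl and 1.05 for APAP, were computed from the raw counts as medians of ratios. A further deposited signal equals the count over these factors. Another 3 deposited columns with means of both libraries, a score here, were not used. Reads of 950 genes without a symbol make up 0.599% (ctrl) and 0.887% (APAP) of the counts and stayed in the totals.

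Raw ratios were divided by 1.11. Intervals of ratios derive from the exact Clopper-Pearson interval of a gene's share of reads in APAP. Ratios relative to the reference use the exact conditional interval of the odds ratio, and shares use Wilson intervals. A count of 0 was allowed up to 3 counts. All cover counting error only. The rules were tested on simulated counts that held counting error only, which cannot show how they fare with variation between mice, pools or preparations. Promoters came from RefSeq (GRCm38.p6) and gene models and transcripts from GENCODE M21. Protein identity between members, which had been planned, was not analysed here, and transcript identity was used. The 6 members and the 18 gene lists were chosen with earlier results of these data known. Named were the members, Ctrb1 and Cpb1, per list the 3 genes with the most counts and each gene counted as lower or higher (for the 24 enzymes in the plot only), and the 5 genes nearest to the Reg ratio. Other genes were named after their values were seen. A gene of the transducer list that this rule names is not reported here. Other scalings, minimum counts, folds and references were tried. Python 3.11.15, scipy 1.17.1, Biopython 1.88 and edgeR 4.0.16 were used.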

Additional observations from a re-analysis of the deposited data

How the results depend on the processing

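No paired analysis was possible because neither group holds more than 1 library, and no replicate could be left out. Of 121 recomputed values, 102 kept their direction and stayed within counting error or on their side of the threshold, 14 moved beyond it, 4 counts of genes were lower by more than 1.5 times and 1 turned its direction. Under other scalings (library totals, TMM factors, upper quartile, and totals without pancreas and Reg genes) all 28 Reg ratios stayed below 1, and the log2 shift of all genes was at most 0.07. With a minimum of 50 counts, 114 genes were lower and 67 higher, and 4 members were lower since Reg3a (41 counts) was no longer tested. With a ratio of at least 3, the counts were 101 and 49, with 5 members lower. Of 63 relative ratios under other references, 62 stayed below 1. The sum of 6 Reg genes was 0.676 relative to Cpb1 alone, 0.764 relative to acinar secretory and identity genes, 0.963 relative to islet genes and 0.376 relative to duct and epithelial genes, and Reg1 turned to 1.16 relative to islet genes, with intervals that include 1 for both islet values. The reference lists other than the enzymes were chosen after seeing the data. Without Reg1, Reg2 made up 80.8% of the Reg counts in ctrl and 74.8% in APAP, with overlapping intervals. Depth limits Reg3g and Reg3a most, with 0 and 1 counts in APAP.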
